A study of Mus musculus with 16 samples.

Results

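The genes described here are 30 genes of the lysosome: enzymes that work inside it, proteins of its limiting membrane and the transcription factor TFEB. They were picked by symbol, and each had 1 row in a table of 23847 rows. By role they were 7 membrane proteins (Lamp1, Lamp2, Scarb2, Cd63, Npc1, Mcoln1 and Cln3), 5 cysteine cathepsins (Ctsb, Ctsh, Ctsl, Ctss and Ctsz), 3 other proteases (Ctsa, Ctsd and Tpp1), 8 glycosidases (Gaa, Hexa, Gla, Glb1, Naglu, Neu1, Man2b1 and Gusb) and 5 enzymes, carriers and activators of lipid breakdown (Psap, Npc2, Asah1, Lipa and Ppt1), with progranulin (Grn) and Tfeb. The material was RNA from mouse small intestinal organoids, epithelial structures grown from isolated crypts, of C57BL/6 background and taken on culture day 3. Organoids were either Atg16L1 f/f, which are the controls and carry floxed alleles, or Atg16L1 dIEC, which the study calls ATG16L1-deficient. Each genotype was left without stimulation or given 20 ng/ml of murine TNF for 2 hours, and each of the 4 groups had 4 libraries, 16 in all. The labels do not give the Cre driver, the age or sex of the mice, or whether libraries of a group came from separate animals or cultures, so every p-value rests on the spread among libraries of a group, and that spread may be technical.

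Lysosomes are acidic organelles in which hydrolases break down material delivered by endocytosis and by autophagy. ATG16L1 is a part of the complex that attaches ATG8 proteins to membranes during autophagy, the route by which cytoplasm reaches the lysosome. TFEB and its relatives bind an E-box known as the CLEAR element in front of many lysosomal genes and raise their transcription. TNF is a cytokine that acts on epithelial cells through NF-kB and MAP kinase signalling.

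Promoter sequence is shown for a few members because the CLEAR element is the feature that lysosomal genes are known to share. Windows from 250 bases before to 50 bases after the gene start were taken from RefSeq (GRCm38.p6), which gave 31 windows for 26 of the 30 members and none for Asah1, Ctsb, Ctsh and Npc1. The letters TCACGTG, searched on both strands, were present in the windows of 9 of these 26 genes (34.6%), namely Cln3, Ctsa, Ctsd, Gaa, Gla, Glb1, Lamp1, Mcoln1 and Naglu. Of 27025 mouse genes with a window of the same length, 4.29% held them. The full palindrome TCACGTGA, which contains these letters, was in 5 of the 26 (19.2%) against 1.12% of all genes, and the shorter CACGTG, contained in both, was in 10 (38.5%) against 8.09%. Lamp1 had 4 copies of TCACGTG between 10 and 62 bases before its start, Gla had 2, and Glb1 and Gaa had 1 each; capitals mark the matches below, each strand read 5′ to 3′. The window of Ctss, the one member that differed between genotypes without TNF, held no TCACGTG but a match to the core of the interferon-stimulated response element, GAAA and, after any 2 bases, GAAA again, which Lamp1 also had (2 of 26, 7.69%, against 3.99% of all genes). The NF-kB motif was found in 6 of the 26 (23.1%; Ctsz, Grn, Lamp1, Neu1, Psap and Scarb2) against 9.55% of all genes. A match is a description of letters and not evidence that a factor was bound.
Lamp1, chr8:13159084-13159160, plus strand: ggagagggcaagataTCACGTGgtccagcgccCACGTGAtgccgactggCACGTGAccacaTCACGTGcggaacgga
Gla, chrX:134601178-134601248, minus strand: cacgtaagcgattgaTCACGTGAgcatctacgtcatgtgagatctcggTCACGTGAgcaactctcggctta
Glb1, chr9:114401014-114401050, plus strand: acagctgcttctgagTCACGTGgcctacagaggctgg
Gaa, chr11:119267807-119267843, plus strand: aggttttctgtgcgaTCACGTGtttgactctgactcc
Ctss, chr3:95526750-95526785, plus strand, with the interferon-stimulated response element match: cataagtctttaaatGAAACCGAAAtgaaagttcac

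The values are FPKM, fragments scaled by transcript length and by the mapped fragments of the library, so they can be compared between genes. Atg16l1 itself was at 8.37, 9.37, 9.32 and 8.81 FPKM in unstimulated f/f libraries and at 5.74, 6.41, 5.21 and 5.20 in unstimulated dIEC libraries, a log2 difference of -0.59 (SE 0.064, adjusted p = 0.000122), and with TNF the difference was -0.47 (adjusted p = 0.000233). The gene was thus lower and not absent in the libraries labelled dIEC, and FPKM over the whole gene does not separate a transcript that lacks an exon from an intact one. The 6 epithelial markers summed to 1544 to 2683 FPKM, and the 10 mesenchymal and endothelial markers to at most 2.02 FPKM in any library. Of 13 immune markers in the table, Cd14 (2.55 to 10.9 FPKM) and Lyz2 (18.8 to 36.9) were the 2 above a mean of 1 FPKM, while Ptprc stayed at or under 0.114 and Tyrobp was listed at 0 in 14 of 16 libraries. The f/f 1 and dIEC 4 libraries of both treatments stood apart on the second principal component (10.3% of variance), and in these 4 libraries GC-rich genes were low (Spearman rho between a gene's deviation from its mean and its GC content of -0.707 to -0.388). In the other 6 unstimulated libraries rho was -0.306 to 0.108, and in the other 6 TNF-treated libraries 0.415 to 0.625, so the GC trend moved with TNF as well.

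In unstimulated f/f organoids most members were well expressed: their median was 20.9 FPKM against 10.4 for all 11097 genes tested, and 20 of the 30 lay above that median gene. Cd63, a tetraspanin of late endosomes and lysosomes, was highest (207, 203, 198 and 198 FPKM in the 4 libraries), followed by Lamp1, a heavily glycosylated protein of the lysosomal membrane (174, 189, 183 and 189). The aspartic protease Ctsd (mean 120.5 FPKM) and the carboxypeptidase Ctsz (107.7) came next, and their libraries overlapped. The low end held Npc1, which exports cholesterol from the lysosome (mean 3.00), Tfeb (1.67, 3.07, 2.89 and 2.49) and Naglu, an enzyme of heparan sulfate breakdown (1.64, 2.21, 1.99 and 1.90). Of the 29 pairs of neighbours in this order, 9 had libraries that did not overlap and 20 overlapped, so ranks in the middle of the list, such as Ctsa, Ctss, Ppt1 and Scarb2, are not separated. Spread among the 4 libraries of a group was small for most members, with a median coefficient of variation of 4.98% to 9.52% across the groups, and was largest for Tfeb among f/f libraries with TNF (35.0%).

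**Figure D1:**
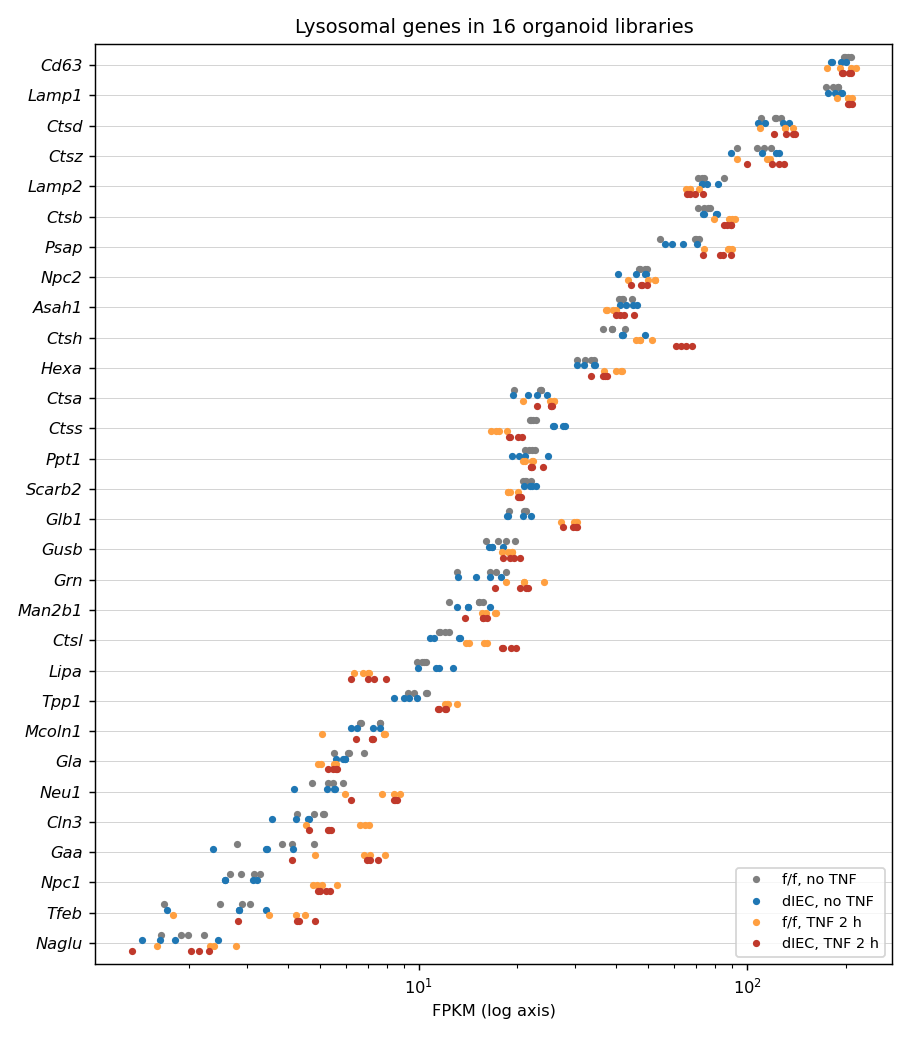
FPKM of the 30 lysosomal genes on a log axis, ordered by their mean in unstimulated f/f organoids, with 1 point per library and 1 colour per group. Cd63 and Lamp1 lie near 200 FPKM and Naglu, Tfeb and Npc1 at the low end; the shifts between groups are small beside the range between genes.

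The first comparison asks how ATG16L1-deficient organoids differ from controls without stimulation. Of the 30 members, 1 was called (3.33%; adjusted p under 0.05 by limma over all genes tested), against 2.32% of all genes (1.54% higher, 0.784% lower), a share near the background. That gene was Ctss, cathepsin S, a cysteine protease known for trimming the invariant chain of MHC class II. Its level was 22.8, 21.9, 22.4 and 21.9 FPKM in f/f libraries and 27.9, 25.6, 27.4 and 25.8 in dIEC libraries. Every dIEC library lay above every f/f library, and the log2 difference was 0.25 (SE 0.043, adjusted p = 0.0052). No other member's libraries separated (1 of 30 did not overlap, against 7.02% of all genes), and the median log2 difference of the members was -0.03, beside -0.02 for all genes. The call for Ctss remained under all 9 alternative settings and without any 1 library (adjusted p at most 0.0304). Ctsh and Tpp1 had an unadjusted p under 0.05, with log2 differences of 0.15 (adjusted p = 0.387) and -0.12 (adjusted p = 0.435). The next largest differences, of Gaa (-0.17) and Cln3 (-0.15), lay within the spread of their libraries. Lamp1, Lamp2, Ctsl, Mcoln1 and Tfeb differed by 0.03, 0.01, 0.02, -0.05 and 0.07, with adjusted p of 0.999 or more. Markers of other epithelial cells moved with genotype: 4 of 10 Paneth cell markers were lower and 5 of 11 enterocyte markers higher in dIEC organoids, with Paneth sums of 18480 to 21430 FPKM in f/f and 14980 to 17760 in dIEC libraries, and their part in the Ctss difference was not tested. In bulk RNA, fewer cells of a type and less RNA per cell cannot be told apart. The summed immune markers were at 30.4 to 36.6 FPKM in f/f and 24.9 to 28.7 in dIEC libraries. Lyz2 made up most of that sum and was called lower in dIEC organoids, at a mean of 27.8 FPKM in f/f and 20.3 FPKM in dIEC. The Paneth marker Lyz1 was called lower as well, at a mean of 2573 FPKM in f/f and 1948 FPKM in dIEC. The immune sum is therefore not read as a measure of immune cells. Cd14 was at 2.98 FPKM in f/f and 3.37 FPKM in dIEC and was not called. The other immune markers averaged under 1 FPKM and were not tested. Of these, Itgam (0.755 FPKM in f/f and 0.993 in dIEC), Fcer1g (0.501 and 0.695), Ptprc, Laptm5, Cd52 and Cd3e were higher in dIEC. Lower in dIEC were Cd68 (0.581 FPKM in f/f and 0.503 in dIEC), Csf1r (0.1705 and 0.1038), Aif1, Tyrobp and Cd79a. The part of immune cells in the Ctss difference was not tested.

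With TNF present, 3 members were higher in dIEC than in f/f organoids and none lower (10.0% of 30, against 6.5% of all genes, 3.79% higher and 2.7% lower), and all were cysteine cathepsins. Ctsh, an aminopeptidase among the cathepsins, was at 47.2, 47.2, 45.9 and 51.4 FPKM in TNF-treated f/f libraries and at 68.1, 60.7, 62.9 and 65.4 in dIEC libraries, a log2 difference of 0.42 (SE 0.062, adjusted p = 0.000582). Ctsl, an endopeptidase that also matures other lysosomal proteins, was at 15.8, 14.2, 14.0 and 16.1 FPKM in f/f and at 19.1, 18.1, 17.9 and 19.7 in dIEC libraries, a log2 difference of 0.30 (SE 0.067, adjusted p = 0.0125). For both genes the lowest dIEC library lay above the highest f/f library. Ctss was at 17.5, 18.5, 17.2 and 16.6 FPKM in f/f and 20.0, 20.7, 19.0 and 18.9 in dIEC libraries, again without overlap, with a smaller log2 difference of 0.16 (SE 0.043, adjusted p = 0.0349). Asah1, the acid ceramidase, was the other member whose libraries did not overlap (4 of 30 members, against 13.9% of all genes), at 0.13 with adjusted p = 0.156. The remaining 2 cysteine cathepsins did not differ beyond their spread (Ctsb 0.01, adjusted p = 0.986; Ctsz 0.10, adjusted p = 0.777). Cln3 (-0.22, adjusted p = 0.281), Tfeb (0.20, 0.764), Lamp1 (0.03, 0.844), Lamp2 (0.03, 0.924) and Mcoln1 (-0.01, 0.997) were not called, and the median over the members was 0.03, beside 0.01 for all genes. The Ctss call was lost without unstimulated f/f 3 (adjusted p = 0.0529), TNF-treated f/f 1 (0.0568), f/f 3 (0.0977) or f/f 4 (0.112), and TNF-treated dIEC 1 (0.102) or dIEC 2 (0.114), as it was in a fit of the 2 groups alone (0.108), after removal of the GC trend (0.0912) and, together with that of Ctsl (0.0626), under median-of-ratios scaling (0.179). Median-of-ratios scaling left 1 higher and 1 lower call, against 6.42% of all genes. Removal of the GC trend left 3 higher and 2 lower, against 14.9% of all genes. Hexa was called lower under both (-0.16 and -0.15), and Cln3 (-0.24) lower and Tfeb (0.21) higher after removal of the GC trend. In the TNF-treated groups 5 of 10 Paneth markers were lower and 1 higher in dIEC organoids, and 2 of 11 enterocyte markers were lower and 1 higher; their part in the cathepsin differences was not tested.

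**Figure D2:**
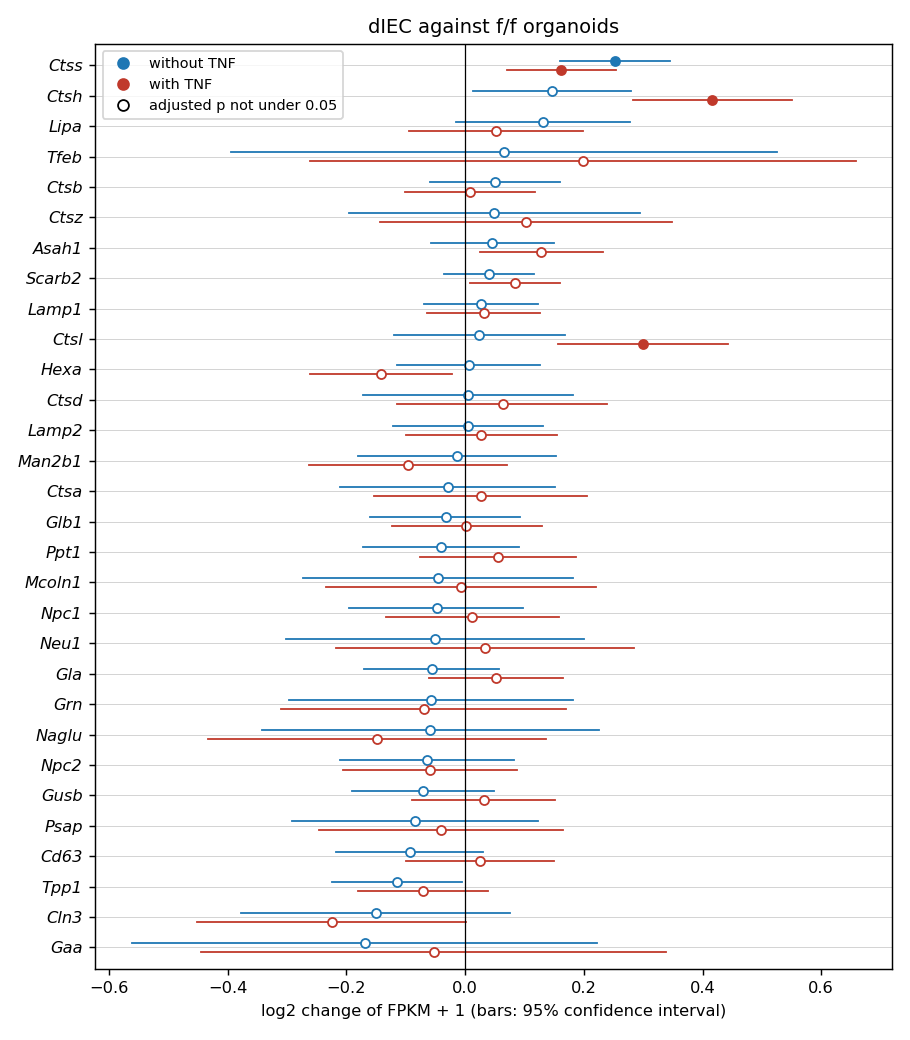
Log2 difference of FPKM + 1 between dIEC and f/f organoids for the 30 genes, without TNF (blue) and with TNF (red), with 95% confidence intervals; filled points have an adjusted p under 0.05. Ctss is filled in both comparisons and Ctsh and Ctsl with TNF, while the intervals of most other members include 0.

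The next comparison asks what 2 hours of TNF did in f/f organoids. TNF changed a large part of the transcriptome (47.2% of all genes called, 26.9% higher and 20.3% lower), and 19 of the 30 members were called (63.3%), 13 higher and 6 lower. The largest rises were in Gaa, Npc1, Glb1 and Neu1, and the deepest falls in Lipa and Ctss. The libraries of 15 members did not overlap between treatments, where 44% of all genes did not overlap. The median log2 change over the 30 was 0.14, beside 0.05 for all genes. Once the GC trend had been removed, the median was -0.003, beside -0.012 for all genes. The member calls were then 11 higher and 8 lower, against 58% of all genes called.

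Among membrane proteins, Npc1 rose from 2.67, 3.16, 2.88 and 3.30 FPKM to 4.78, 4.89, 5.06 and 5.64 (log2 change 0.61, SE 0.069, adjusted p = 5.32e-06). Every treated library was above every untreated one. Scarb2, the membrane protein that carries glucocerebrosidase to lysosomes, fell from 22.0, 21.3, 20.8 and 21.1 to 18.7, 18.7, 20.0 and 19.0 FPKM (-0.15, adjusted p = 0.00328). Lamp1 (0.13, adjusted p = 0.0298), Cln3 (0.31, adjusted p = 0.0283) and Lamp2 (-0.16, adjusted p = 0.0425) passed the threshold with overlapping libraries. The call for Lamp1 was lost without unstimulated f/f 1 (adjusted p = 0.095) or f/f 3 (0.0615) or TNF-treated f/f 2 (0.0654), f/f 3 (0.0661) or f/f 4 (0.0911), and after GC removal its change was 0.01 (0.766). The call for Lamp2 was lost without unstimulated f/f 1 (-0.10, adjusted p = 0.146), f/f 4 (0.056) or dIEC 1 (0.0518) or TNF-treated f/f 2 (0.104), f/f 3 (0.0854), f/f 4 (0.0838), dIEC 1 (0.0531) or dIEC 3 (0.0508), and after GC removal its change was -0.02 (0.562); the call for Cln3 was lost without unstimulated f/f 1 (0.0889) or f/f 4 (0.0542) or TNF-treated f/f 2 (0.0896), f/f 3 (0.0854) or f/f 4 (0.0744). All 3 were also lost in a fit of the 2 groups alone (adjusted p of 0.053 for Lamp1, 0.0717 for Lamp2 and 0.0733 for Cln3), Lamp1 (0.137) and Lamp2 (0.0548) under median-of-ratios scaling, and Lamp2 (0.0535) with no minimum level. Mcoln1, a calcium channel of the lysosomal membrane (-0.01, adjusted p = 0.948), and Cd63 (-0.03, adjusted p = 0.661) were not called. After GC removal Cd63 was called lower (-0.263, adjusted p = 0.0463).

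Among proteases, Ctss fell while 3 of the other 4 cysteine cathepsins among the members rose. Ctsc, a cathepsin outside the members, fell as well (log2 change -0.31, adjusted p = 0.000883). Ctss went from 22.8, 21.9, 22.4 and 21.9 to 17.5, 18.5, 17.2 and 16.6 FPKM (log2 change -0.33, SE 0.043, adjusted p = 2.01e-05), while Ctsl rose from 12.4, 11.6, 11.6 and 12.0 to 15.8, 14.2, 14.0 and 16.1 (0.31, SE 0.067, adjusted p = 0.00149). Neither gene's groups overlapped. Ctsh (0.29, adjusted p = 0.00163) and Ctsb (0.23, adjusted p = 0.00219), the latter an abundant endopeptidase, rose, and so did the tripeptidyl peptidase Tpp1, from 9.26 to 10.6 FPKM before to 12.1 to 13.1 FPKM with TNF (0.29, SE 0.051, adjusted p = 0.00035). The serine carboxypeptidase Ctsa, Ctsd and Ctsz were not called (0.11, 0.07 and 0.04). With the GC trend removed, Ctsd (-0.125, adjusted p = 0.04) and Ctsz (-0.184, adjusted p = 0.00263) were called lower.

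Among glycosidases, Glb1, the lysosomal beta-galactosidase, rose from 18.8, 20.9, 21.2 and 21.1 to 27.1, 30.3, 30.1 and 29.7 FPKM (log2 change 0.50, SE 0.059, adjusted p = 9.31e-06). Gaa, which breaks down glycogen, rose from 2.81, 4.80, 4.13 and 3.85 to 4.82, 7.88, 6.80 and 7.09 (0.64, SE 0.18, adjusted p = 0.00986), and the sialidase Neu1 from 4.72, 5.89, 5.47 and 5.30 to 5.98, 8.78, 7.75 and 8.42 (0.45, SE 0.12, adjusted p = 0.00554). In Gaa and Neu1 the groups separated although f/f 1 was the lowest library of both. Hexa, a subunit of beta-hexosaminidase, rose by 0.29 (SE 0.056, adjusted p = 0.000764), but by 0.10 (adjusted p = 0.0805) once the GC trend had been removed. Gla, the alpha-galactosidase, fell (-0.18, adjusted p = 0.0106) with overlapping libraries. Naglu, Man2b1, a mannosidase, and the beta-glucuronidase Gusb were not called (0.15, 0.17 and 0.07).

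Among the genes of lipid breakdown, Lipa, the acid lipase that frees cholesterol from its esters, fell from 10.3, 10.5, 9.86 and 10.4 to 6.99, 6.38, 7.08 and 6.76 FPKM (log2 change -0.53, SE 0.069, adjusted p = 2.02e-05). Every treated library was below every untreated one. Psap, the precursor of the saposins that present sphingolipids to their enzymes, rose from 54.4 to 71.5 FPKM before to 74.0 to 90.1 FPKM with TNF (0.36, adjusted p = 0.00735). Grn, a secreted and lysosomal glycoprotein, rose by 0.36 (adjusted p = 0.0164); that call was lost without unstimulated f/f 1 (0.0614) or TNF-treated f/f 4 (0.0594). Asah1 fell by 0.14 (adjusted p = 0.0295), a call lost without unstimulated f/f 1 (0.0929) or f/f 4 (0.0503) or TNF-treated f/f 2 (0.0757) or f/f 3 (0.0764). Npc2, which hands cholesterol to NPC1, and the thioesterase Ppt1 were not called (0.04 and -0.02). Tfeb went from 1.67, 3.07, 2.89 and 2.49 to 1.79, 4.51, 3.50 and 4.25 FPKM, with f/f 1 lowest in both groups, and was not called (0.32, adjusted p = 0.235); without TNF-treated f/f 1 it was (0.54, adjusted p = 0.024).

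**Figure D3:**
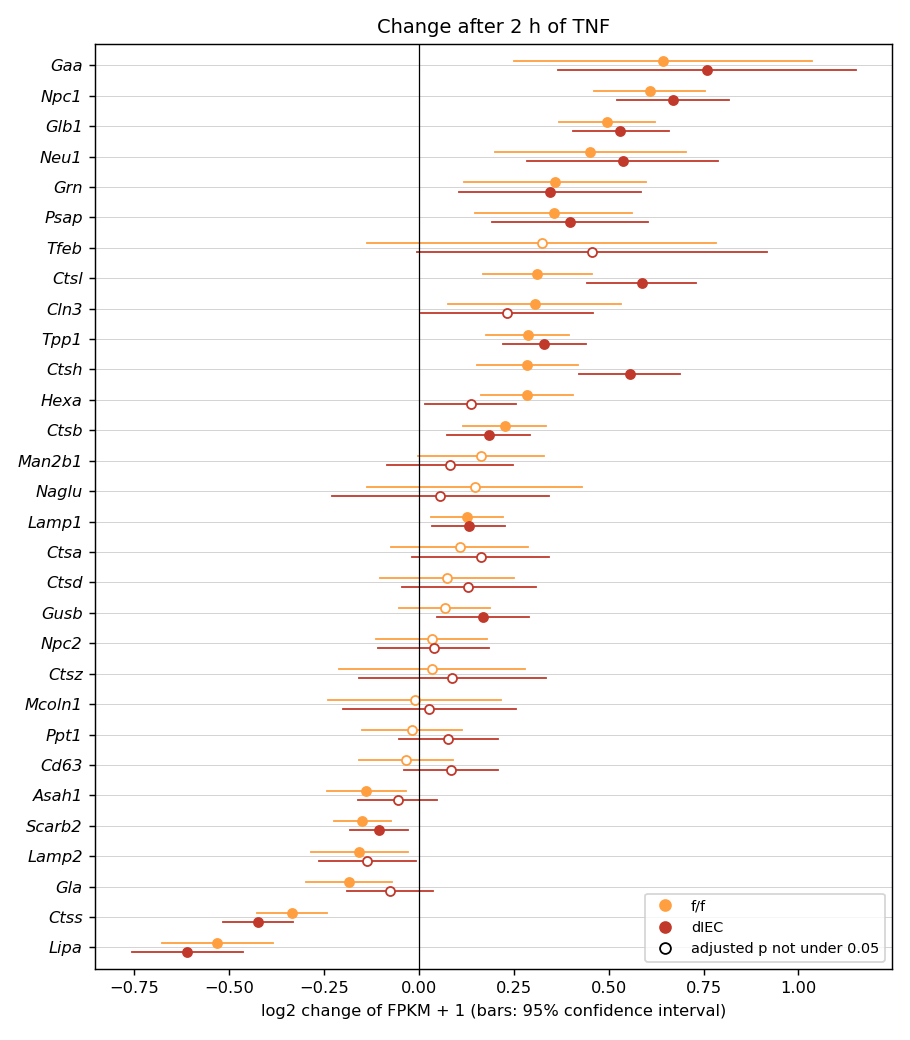
Log2 change of FPKM + 1 after 2 hours of TNF for the 30 genes in f/f (orange) and dIEC (red) organoids, with 95% confidence intervals; filled points have an adjusted p under 0.05. Gaa, Npc1, Glb1 and Neu1 rose and Lipa and Ctss fell in both genotypes, and Ctsl and Ctsh lie farther right in dIEC.

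In dIEC organoids, which share no library with the f/f comparison, TNF raised 12 members and lowered 3 (15 of 30, 50%, against 53.1% of all genes, 33.4% higher and 19.8% lower). The libraries of 13 members did not overlap between treatments, against 42.5% of all genes. Of the 15 called, 14 were also called in f/f organoids, 11 higher and 3 lower, which is 73.7% of the f/f list and 93.3% of the dIEC list. TNF called 47.2% of all genes in f/f organoids. The share of all genes called in both genotypes is not given here, so this overlap is not read as particular to the members. Ctsl rose from 13.4, 10.9, 11.2 and 13.2 to 19.1, 18.1, 17.9 and 19.7 FPKM (log2 change 0.59, SE 0.067, adjusted p = 4.32e-06), and Ctsh from 49.1, 41.5, 41.8 and 41.5 to 68.1, 60.7, 62.9 and 65.4 (0.56, SE 0.062, adjusted p = 3.52e-06). Npc1 rose from 2.57, 3.13, 2.57 and 3.22 to 5.02, 5.38, 4.95 and 5.21 FPKM (0.67, SE 0.069, adjusted p = 1.41e-06). In none of these genes did the groups overlap. Glb1 rose from 18.6 to 22.0 FPKM before to 27.5 to 30.3 FPKM with TNF (0.53, SE 0.059, adjusted p = 3.37e-06), Tpp1 from 8.41 to 9.90 before to 11.5 to 12.1 (0.33, SE 0.051, adjusted p = 8.26e-05) and Neu1 from 4.18 to 5.57 before to 6.21 to 8.62 (0.54, SE 0.12, adjusted p = 0.00145). These too were without overlap between treatments. Ctss fell from 27.9, 25.6, 27.4 and 25.8 to 20.0, 20.7, 19.0 and 18.9 FPKM (-0.42, SE 0.043, adjusted p = 1.31e-06). Lipa fell from 11.3, 11.5, 9.97 and 12.7 to 7.94, 6.99, 6.21 and 7.29 (-0.61, SE 0.069, adjusted p = 3.72e-06). Both were lower in every treated library. Gaa had the largest change (0.76, SE 0.18, adjusted p = 0.00298), with dIEC 4 lowest in both groups and libraries that overlapped between treatments. Psap (0.40), Grn (0.35), Ctsb (0.18), Gusb (0.17) and Lamp1 (0.13) also rose and Scarb2 fell (-0.11). Of these, Grn and Gusb had overlapping libraries.

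Calls at the edge of the threshold depended on single libraries. Lamp1 was not called without unstimulated dIEC 3 (adjusted p = 0.0755) or TNF-treated dIEC 1 (0.0558), Scarb2 without unstimulated dIEC 4 (0.058) or TNF-treated dIEC 1 (0.0562), Grn without unstimulated dIEC 4 (0.0578) or TNF-treated dIEC 1 (0.0523), and Gusb without unstimulated dIEC 3 (0.0574) or TNF-treated dIEC 2 (0.0689). Median-of-ratios scaling ended the calls for Lamp1 (0.04, adjusted p = 0.376) and Gusb (0.08, 0.143), and a fit of the 2 groups alone that for Scarb2 (0.063). In the dIEC groups same-numbered libraries deviated together, and with the number as a block 22 members were called, 18 higher and 4 lower, against 70.8% of all genes. The 7 members gained were Lamp2 (-0.14, adjusted p = 0.00248), Cln3 (0.23, 0.00424), Ctsa (0.16, 0.00222), Tfeb (0.46, 0.000475), Ctsd (0.13, 0.014), Hexa (0.14, 0.00193) and Ctsz (0.09, 0.0424), of which the last 3 were called lower when the GC trend was removed in the same blocked fit (-0.09, -0.07 and -0.15). In that fit Lamp2 (-0.03), Cln3 (0.10) and Ctsa (-0.04) were not called, so that of the 7 only Tfeb was still called in its direction, at 0.18. Without the block, Tfeb was at 2.85, 3.44, 2.84 and 1.71 FPKM before and 4.27, 4.85, 4.33 and 2.82 with TNF (0.46, adjusted p = 0.088), and Mcoln1 did not change beyond its spread (0.03, adjusted p = 0.84).

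**Figure D4:**
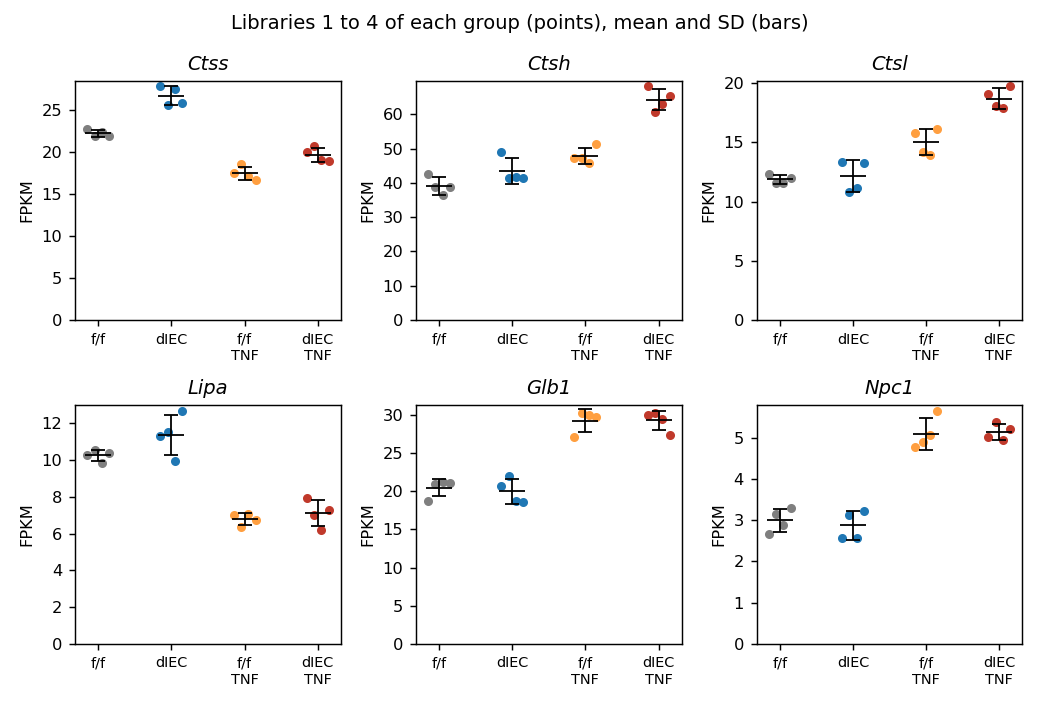
FPKM of Ctss, Ctsh, Ctsl, Lipa, Glb1 and Npc1 in the 4 libraries of each group (points), with the mean and SD (bars). TNF-treated libraries lie apart from untreated ones of the same genotype in all 6 panels, and dIEC libraries lie above f/f libraries for Ctss in both treatments and for Ctsh and Ctsl with TNF.

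Because the GC trend of the libraries moved with TNF, the size of the TNF changes was also computed with each library's trend removed. The members' longest transcripts had a GC content of 38.6% (Lamp2) to 63.2% (Tfeb), with a median of 51.2% beside 49.4% for all genes tested. Across the 30 genes, which share the libraries and are not replicates, the TNF change correlated with GC content. Pearson's r was 0.469 in f/f and 0.400 in dIEC organoids. After removal r was 0.0971 and 0.0748, a fall that follows by construction, because the removal used the same GC values. Any TNF response that follows GC content would be removed with the trend, and cannot be told apart from it here. In f/f organoids the changes after removal were 0.61 for Npc1, 0.34 for Ctsl, -0.34 for Ctss, -0.47 for Lipa and 0.39 for Glb1. Those of Gaa (0.40), Psap (0.18) and Grn (0.16) shrank more and were still called. These f/f values are from a fit without a replicate block. The same fit in dIEC organoids gave 10 higher and 7 lower members, 17 of 30 against 61.6% of all genes. Gained calls were Ctsz (-0.15), Naglu (-0.21), Man2b1 (-0.11) and Npc2 (-0.10), lower, and Tfeb (0.18), higher. With the replicate block and GC removal together, 10 were higher and 9 lower, 19 of 30 against 67.7% of all genes. The median was -0.02 with and without the block. In the blocked fit the changes were 0.64 for Npc1, 0.59 for Ctsl, 0.45 for Ctsh, -0.45 for Ctss and -0.57 for Lipa. Gaa was at 0.50, Psap at 0.20 and Ctsb at 0.09, all called, and Lamp1 (-0.01, adjusted p = 0.767), Gusb (0.02, 0.804) and Grn (0.12, 0.0995) were no longer called. Markers of other epithelial cells also moved with TNF, beside calls for 47.2% of all genes in f/f and 53.1% in dIEC organoids. Of 6 stem cell markers 5 rose in each genotype, with sums of 1142 to 1358 FPKM before and 1724 to 1887 FPKM after TNF in f/f and 976 to 1203 FPKM before and 1474 to 1600 FPKM after in dIEC organoids. Of 4 enteroendocrine and tuft markers tested, 3 rose in f/f and 4 in dIEC organoids. Of 10 Paneth markers, 6 rose in f/f, and in dIEC 4 rose and 4 fell. Of 11 enterocyte markers, 6 rose and 1 fell in f/f, and 4 rose and 4 fell in dIEC organoids. Of 7 goblet markers 1 rose and 2 fell in each genotype. The part of these cells in the TNF changes was not tested.

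**Figure D5:**
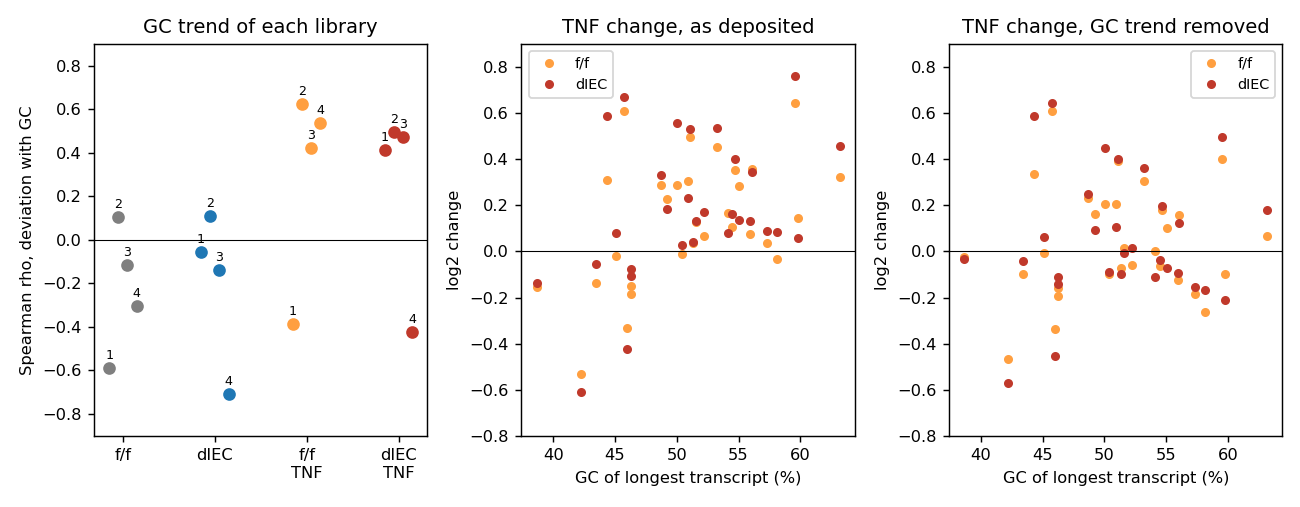
Left, Spearman rho between gene deviation and GC content in each library, numbered by replicate; centre and right, log2 change with TNF of the 30 genes against the GC content of their longest transcript, as deposited and with the GC trend removed. The f/f 1 and dIEC 4 libraries lie below the others of their group. The slope in the centre panel is nearly flat in the right one, which the removal brings about by construction.

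The last comparison asks whether TNF acted differently in the 2 genotypes. None of the 30 members had a difference of TNF responses past the threshold by limma, against 3.29% of all genes (1.39% more positive, 1.9% more negative in dIEC), and 2 had an unadjusted p under 0.05. These were Ctsl, whose response was larger in dIEC organoids by 0.28 on the log2 scale (95% interval 0.07 to 0.48, adjusted p = 0.16), and Ctsh, larger by 0.27 (0.08 to 0.46, adjusted p = 0.135). Without unstimulated dIEC 1, where Ctsh was at 49.1 FPKM and the other 3 libraries at 41.5 to 41.8, the Ctsh difference was 0.33 and passed (adjusted p = 0.0373). With the replicate number as a block within each genotype, Ctsl (adjusted p = 0.0159), Ctsh (0.0242) and Hexa (-0.15, 0.0475) passed, against 11.1% of all genes. Same-numbered libraries correlated at 0.118 to 0.419 in dIEC organoids, with 4 of 4 closest to their own number. In f/f organoids they correlated less, at -0.03 to 0.32, with 3 of 4 closest to their own number. Hexa (-0.15, adjusted p = 0.472) had the next largest difference without the block. For Ctss the difference was -0.09 (-0.22 to 0.04), for Lamp1 0.01 (-0.13 to 0.14), for Lamp2 0.02 (-0.16 to 0.20), for Mcoln1 0.04 (-0.28 to 0.36) and for Tfeb 0.13 (-0.52 to 0.78). Cell type markers differed in their TNF responses as well: 5 of 11 enterocyte markers had a lower response in dIEC organoids (median over the 11 of -0.43), and of 10 Paneth markers 2 had a lower one, Defa21 (-1.60) and Defa22 (-1.55), and 1 a higher one. Their part in the Ctsl and Ctsh values was not tested.

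Genes of the wider lysosomal system are given by lists chosen for their function. Without TNF, none of the 99 tested genes of the proton pump, other hydrolases, other membrane proteins, sorting, cystatins and regulators differed between genotypes by limma, against 2.32% of all genes (7 had an unadjusted p under 0.05). With TNF present 1 of 99 did, against 6.5% of all genes: Rraga, the RagA GTPase that recruits mTORC1 to lysosomes, was at a mean of 30.5 FPKM in f/f and 36.3 FPKM in dIEC organoids (0.25, SE 0.037, adjusted p = 0.000562). It was also the 1 gene of the 99 with a called difference of TNF responses (0.23, adjusted p = 0.0247; 3.29% of all genes), which was lost under median-of-ratios scaling (0.178) and without unstimulated f/f 3 (0.0549), f/f 4 (0.062) or dIEC 1 (0.0581) or TNF-treated f/f 4 (0.0537) or dIEC 1 (0.0529).

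Under TNF the lists moved in both directions, with shares called of 0% to 50% in f/f and 0% to 70.6% in dIEC organoids beside 47.2% and 53.1% of all genes. List genes named for a single genotype were picked by adjusted p there, which does not make their response particular to that genotype. Of 17 regulators tested, 5 were higher and 3 lower in f/f and 7 higher and 5 lower in dIEC organoids. Tfe3, a relative of TFEB, rose from a mean of 6.74 to 11.8 FPKM in f/f (0.73, adjusted p = 1.25e-05) and from 6.45 to 12.4 FPKM in dIEC organoids (0.85, adjusted p = 1.92e-06), and Fnip2, a folliculin-interacting protein, rose by 0.35 and 0.41. Rragd, the RagD GTPase, fell by 0.44 and 0.61, and the Ragulator subunits Lamtor3 (-0.38 in f/f) and Lamtor5 (-0.28 in dIEC) were lower. Mean Lamtor3 also fell in dIEC organoids, from 30.4 to 26.4 FPKM, and mean Lamtor5 in f/f organoids, from 52.2 to 40.6 FPKM.

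Of the 26 other hydrolases and activators tested, 10 were higher and 3 lower in f/f and 10 higher and 4 lower in dIEC organoids. The asparaginyl endopeptidase Lgmn rose from a mean of 6.06 to 9.58 FPKM in f/f (0.58, adjusted p = 5.97e-06) and from 5.10 to 9.61 FPKM in dIEC organoids (0.80, adjusted p = 1.47e-07), and the galactosylceramidase Galc rose by 0.39 and 0.37. In f/f organoids the sulfatase Arsa rose (0.48) and the dipeptidyl peptidase Ctsc fell (-0.31). In dIEC organoids the cathepsin Ctso fell (-0.31, adjusted p = 0.000189). Their means moved the same way in the other genotype. In dIEC organoids Arsa went from 2.99 to 4.38 FPKM and Ctsc from 39.1 to 32.9 FPKM, and in f/f organoids Ctso went from 4.04 to 3.38 FPKM.

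Of the 17 V-ATPase subunits, 2 were higher and 6 lower in f/f and 4 higher and 4 lower in dIEC organoids. Atp6v0e fell by 0.60 (adjusted p = 8.03e-05) and 0.63 (adjusted p = 3.93e-05) and Atp6v1h by 0.38 and 0.25. Atp6v1d and Atp6v1e1 were lower in f/f (-0.23 each), while in dIEC organoids Atp6v1b2 rose (0.24) and Atp6v1a rose (0.18), the last lost under median-of-ratios scaling (adjusted p = 0.217). Of 15 genes that sort proteins to the lysosome, 5 were higher and 2 lower in f/f and 6 higher and 2 lower in dIEC organoids. The adaptor Gga2 rose from a mean of 3.21 to 6.24 FPKM in f/f (0.78, adjusted p = 7.03e-08) and from 2.87 to 5.75 FPKM in dIEC organoids (0.80, adjusted p = 3.96e-08), and Igf2r, the large mannose 6-phosphate receptor, rose by 0.59 and 0.54. The retromer subunit Vps29 fell by 0.40 and 0.37 and Vps35 by 0.31 in f/f, and Gga3 rose by 0.32 in dIEC organoids. Mean Vps35 also fell in dIEC organoids, from 89.9 to 73.8 FPKM, and mean Gga3 rose in f/f organoids, from 6.02 to 7.26 FPKM. Of 22 other membrane proteins and transporters tested, 7 were higher and 2 lower in f/f and 5 higher and 7 lower in dIEC organoids, with falls of Mcoln2, a relative of Mcoln1 (-0.63, adjusted p = 6.78e-07, and -0.60, adjusted p = 8.68e-07), and rises of the transporters Slc15a4 (0.39 and 0.48) and Slc29a3 (0.31 and 0.28). Laptm4a was lower in f/f organoids (-0.16), and its mean in dIEC organoids went from 76.7 to 68.6 FPKM. Neither of the 2 cystatins tested was called in any comparison.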

How the data were processed

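The deposited table holds FPKM per gene and library, which the authors made from total RNA; the submitters' processing notes name TopHat2 2.1.1, Cufflinks 2.2.1, Cuffdiff and the mm10 build, without settings. Sequencing depth, annotation and strand use are not given in the sources used here, and whole reads could not be recovered from the FPKM, so no count test was run. The deposited group means and row sums (other values by the authors) and p-values were not used. Of the members, 14 overlap another annotated gene, 11 of them on the opposite strand, and reads of such pairs cannot be told apart without strand.

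FPKM + 1 was taken to log2, which understates changes of low genes. Of 23847 rows, 11097 averaged 1 FPKM or more across the 16 libraries, all 30 members included, and were fitted with limma 3.58.1 in R 4.3.3, with 1 mean per group, a mean-variance trend and moderated variances. Benjamini-Hochberg adjustment ran over all 11097 genes, and adjusted p under 0.05 was called; tests are two-sided. An exact permutation test of 4 against 4 libraries cannot go below 0.0286. Libraries count as not overlapping when all 4 of one group exceed all 4 of the other. In simulated data on 11097 genes, made for the unstimulated dIEC and f/f contrast, 80% of 100 genes changed by 0.5 on the log2 scale and 96% of 100 changed by 1 were called, with 6 false calls. GC content came from the longest transcript of each gene in a GENCODE annotation of GRCm38, matched for 93.8% of genes tested, and its trend was removed from each library with a spline of 5 degrees of freedom.

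Same-numbered libraries of the dIEC groups deviated together for every number (r from 0.118 to 0.419), so the blocked fit is given beside that comparison where it changes a call. Members and lists were chosen with earlier results of these data known. The text names Atg16l1, then Lamp1, Lamp2, Ctsl, Mcoln1 and Tfeb in each comparison, every member called, the 3 members of largest change, and up to 4 called genes of smallest adjusted p from each lysosomal list, of which some are not reported here; other genes and the cell type marker lists appear as counts, sums or levels. Alternatives were the pseudocount, the low-value filter, scaling, the GC trend, the groups fitted, single libraries and the 4 libraries apart left out, the replicate block, and summing rows of a symbol; the GC trend together with the block was added after seeing the data. Figures were drawn with matplotlib 3.10.9.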

Additional observations from a re-analysis of the deposited data

Results flagged for a closer look

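Of 120 sets of 4 libraries (30 genes in 4 groups), 15 (12.5%) had 1 library far from the other 3 by Dixon's test. The test's nominal rate is about 1 in 20, but the genes share the same libraries, so the sets are not independent. The share over all genes is not given here, and the 12.5% is not read as particular to the members. Of these 15, 14 lay in the f/f 1 or dIEC 4 libraries, 13 of them as the lowest value. In unstimulated f/f library 1, Ctsa was at 19.5 FPKM, Glb1 at 18.8, Man2b1 at 12.3 and Psap at 54.4, each below the others. In TNF-treated f/f library 1, Mcoln1 was at 5.07 FPKM (7.85 to 7.92 in the others), Ctsz at 93.3, Ctsa at 20.7 and Psap at 74.0. In TNF-treated dIEC library 4, Mcoln1 was at 6.47 FPKM, Cln3 at 4.63, Ctsa at 22.95, Gaa at 4.11 and Neu1 at 6.21, each the lowest, and Ppt1 at 23.9 the highest. The flag outside these libraries was Ctsh in unstimulated dIEC library 1, at 49.1 FPKM against 41.5 to 41.8 in the other 3.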

How the results depend on the processing

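Of 38 calls of members, 26 held under every alternative and without any 1 library, among them Ctss without TNF, Ctsh with TNF, and 11 of 15 TNF calls in dIEC and 13 of 19 in f/f organoids. The share of all genes' calls that held in this way is not given here, so these counts are not read as particular to the members. Leaving out 1 library gave 1 to 1, 2 to 3, 14 to 20, 12 to 18 and 0 to 1 members called in dIEC against f/f without TNF, the same with TNF, TNF in f/f, TNF in dIEC and the difference of responses. Over all genes the calls were then 139 to 304, 537 to 867, 4499 to 5781, 5133 to 6262 and 240 to 450. Without the 4 libraries apart the numbers were 2 (Ctss higher, Tpp1 lower), 5, 21, 21 and 0. Of all genes, 6.39%, 13.6%, 62%, 69.8% and 8.71% were called there, in the same order. With the GC trend removed, dIEC against f/f with TNF had 5, against 14.9% of all genes. In the same setting Lamp1 reversed to -0.009 for TNF in dIEC, with or without the replicate block, and the cause was not tested. The difference of responses had 1 member called with a replicate block over all groups (Ctsl), 3 with the replicate block within genotype and 3 with that block and the GC trend removed. Of all genes, 3.99%, 11.1% and 12.3% were called there, in the same order. For TNF in f/f the replicate block within genotype gave 22 members, against 66.1% of all genes, with Ctsa, Man2b1 and Tfeb added. The f/f pairs correlated at -0.03 to 0.32, with 3 of 4 libraries closest to their own number. Across genotypes, same numbers correlated at -0.17 to 0.17 within a treatment. Between unstimulated f/f and TNF-treated dIEC they correlated at -0.06 to 0.07. Between unstimulated dIEC and TNF-treated f/f they correlated at -0.18 to 0.31, with 2 of 4 libraries closest to their own number. Over all genes, 258 calls for genotype without TNF became 632 with the GC trend removed, 709 without the 4 libraries, 136 in a fit of the 2 groups and 139 to 304 without 1 library; 721 with TNF became 1655, 1505 and, with no minimum level, 1082; 365 differences of responses became 925 and 967, and 1231 and 1364 with the block within genotype, without and with GC removal, and 240 without unstimulated f/f 4. A pseudocount of 5 shrank the TNF changes of low genes by construction, to 0.34 and 0.37 for Npc1, 0.39 and 0.45 for Gaa and 0.30 and 0.35 for Neu1 in f/f and dIEC, and in f/f to 0.19 for Cln3 and -0.12 for Gla, all still called. Depth is unknown, so counting error could not be set against these values.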
